A study of Mus musculus with 6 samples.

Results

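The 4 genes described here, Csf1, Csf1r, Vcam1 and Emr1, belong to the contact between Leydig cells and macrophages of the testis. They were taken as the rows of the deposited gene table whose symbol is exactly one of these names, and all 4 were found among its 10580 genes. Emr1 is the older symbol of Adgre1. The RNA came from fetal Leydig cells (FLCs) of testes at embryonic day 18.5, in 3 libraries, and from adult Leydig cells (ALCs) of testes at postnatal day 100, in 3 libraries. All cells were taken from XY males that carried the transgene Tg(Nr5a1-GFP), given as Nr5a1 Tg in the labels, for which the adult mice and the sires of the embryos were heterozygous. It drives a green fluorescent protein from the regulatory sequence of Nr5a1 and so lights up Leydig cells most and Sertoli cells less. Live single cells with the strongest fluorescence were sorted. For the FLCs, embryos of CD-1 mothers were used and cells of several purifications were pooled. The deposited table gives a single level per gene, the authors' mean of normalised counts over all 6 libraries of both stages. Every level below is that mean or is computed from it. Values of single libraries and of either stage alone are not used here, so the spread between replicates and the depth per library are unknown, no level is assigned to FLCs or to ALCs, and no test was made.

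Macrophages lie among the Leydig cells in the interstitium of the adult testis and join them through close membrane contacts. The growth factor CSF1 acts through its receptor CSF1R, a tyrosine kinase of the macrophage lineage, on which the survival and proliferation of most tissue macrophages depend. VCAM1 is an adhesion molecule of the immunoglobulin superfamily that binds integrins on leukocytes. EMR1 is the F4/80 antigen, an adhesion G-protein-coupled receptor used widely to mark mouse macrophages.

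Vcam1 had the highest mean of the 4 genes over both stages together. This mean was 46596 normalised counts, rank 38 of 10580 listed genes, so that 99.6% of the listed genes had a lower mean. Csf1 followed with 2155 normalised counts, rank 2377, above 77.5% of the listed genes. The receptor Csf1r had a mean of 982 normalised counts, rank 4428, above 58.1% of the listed genes. Emr1 was the lowest of the 4, with 177 normalised counts, rank 7483, above 29.3% of the listed genes. The median over all listed genes was 679 normalised counts, with quartiles of 119 and 1928. The listed genes are fewer than those the authors describe as expressed, and how they were chosen was not examined. Ranks, percentiles and quartiles therefore place a gene among the listed genes and not among all expressed genes. On this undivided scale Csf1 and Vcam1 lay above the upper quartile, Csf1r between the median and the upper quartile, and Emr1 between the lower quartile and the median. Among the 8148 genes with a mean of at least 100, the shares below Csf1, Csf1r and Emr1 were 70.8%, 45.7% and 8.16%, so that each of them fell below the quartile or median it had exceeded. A mean over both stages can come mostly from one of them, so the order of the 4 genes within FLCs or within ALCs is not known from these values. Vcam1 alone made up 0.210% of the summed means of the listed genes, and Csf1 0.00969%.

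**Figure D1:**
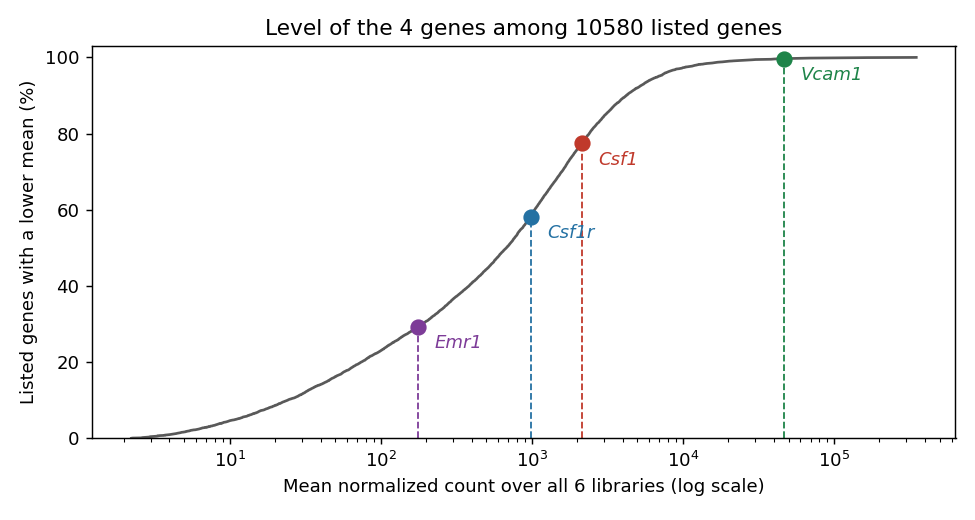
Share of the 10580 listed genes with a lower mean (vertical axis, %) against the authors' mean normalised count over all 6 libraries (horizontal axis, log scale); the curve is every listed gene and the points are the 4 genes. Vcam1 sits near the top of the curve at 99.6%, Csf1 at 77.5%, Csf1r at 58.1% and Emr1 at 29.3%.

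A longer transcript gives more reads, so ratios between genes were taken only after division by the exonic length, the bases covered by all annotated exons of a gene. On this scale, in normalised counts per kilobase (kb), Vcam1 had 5253, Csf1 408, Csf1r 170.0 and Emr1 54.8, against a median of 147 and an upper quartile of 428 for the 10523 listed genes with a length. Csf1 thus lay below the upper quartile on this scale. Vcam1 was 12.9-fold above Csf1 per kb (22.1-fold with the longest transcript as the length) and 95.9-fold above Emr1 (305-fold with the coding length). The ligand Csf1 was 2.40-fold above its receptor Csf1r per kb, and Csf1r 3.10-fold above Emr1 (5.27-fold with the coding length). The order of the 4 genes was the same with and without division by length. These ratios compare levels averaged over both stages and carry no error.

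Vcam1 lies on the minus strand of chromosome 3, from 116109949 to 116129688 of GRCm38, with 4 annotated transcripts of up to 9 exons (gene positions and exons are those of GENCODE vM21). The longest protein annotated for it has 739 residues. Its exons cover 8870 bases when all transcripts are merged. The longest of its coding transcripts has 3469 bases, and its longest transcript, which is not annotated as coding, has 4088. Divided by that transcript instead, the level of Vcam1 was 11398 normalised counts per kb. An antisense gene, Gm43109, shares 61 of the exonic bases. Csf1 lies on the same strand of chromosome 3, from 107741048 to 107760469, with an exonic length of 5281. Its transcripts code for proteins of different lengths, the longest of 552 residues and another of 257, and Csf1 is known to give secreted as well as membrane-bound growth factor. The table counts reads per gene and does not separate these forms.

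Csf1r lies on the plus strand of chromosome 18, from 61100598 to 61132149, with up to 22 exons per transcript and a longest protein of 977 residues. Of its 5774 exonic bases, 873 (15.1%) are also exonic in Hmgxb3, a gene on the opposite strand with a mean of 1696 normalised counts (156 per kb). The library kit keeps the strand of the RNA. Whether the counting used it is not given in the sources used here, so reads on the shared bases could belong to either gene, and their part in the level of Csf1r was not tested. Emr1 spans the longest stretch of the 4, 124837 bases of the plus strand of chromosome 17 from 57358691 to 57483527, with up to 23 exons and an exonic length of only 3238. Its longest annotated protein has 931 residues. No annotated gene overlapped Emr1 or Csf1.

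**Figure D2:**
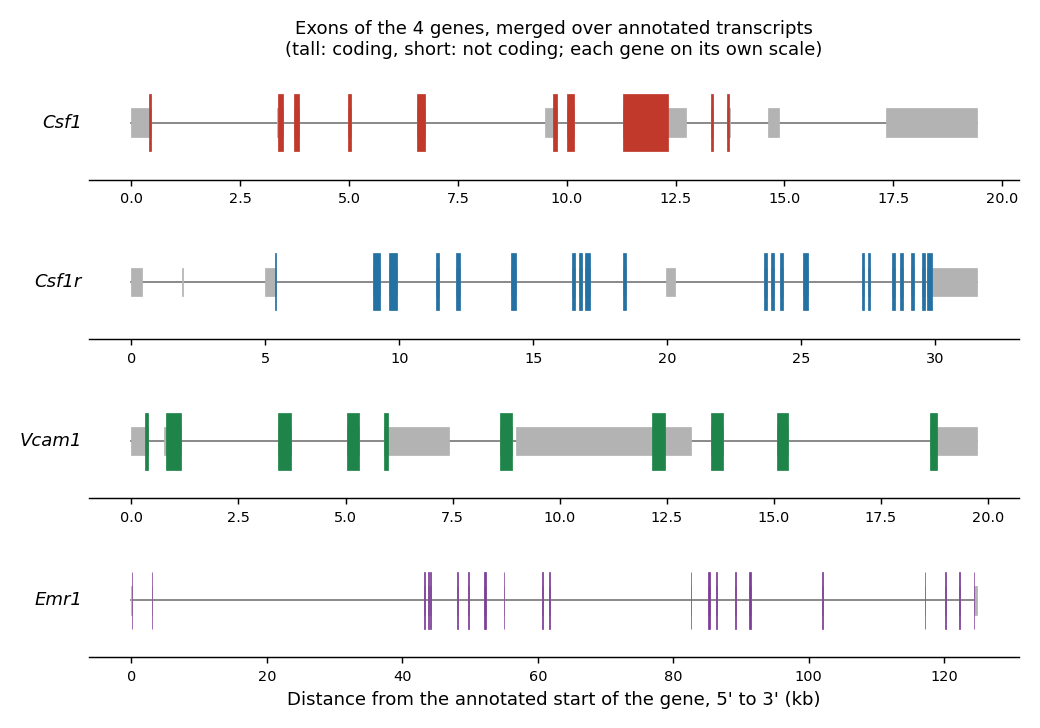
Exons of the 4 genes merged over their annotated transcripts, drawn to scale from the annotated start (horizontal axis, distance in kb, each gene on its own scale); tall coloured boxes are coding and short grey boxes are not. Emr1 spreads 3238 exonic bases over 124837, whereas Vcam1 has 8870 exonic bases within 19740, of which 2406 are coding.

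Within the colony-stimulating factors and their receptors, Csf1 and Csf1r were the highest of the 6 listed genes on the per-kb scale, of 8 looked for. Il34, which codes for the other known ligand of CSF1R, had a mean of 180.3 normalised counts and 92.1 per kb. Csf2ra, the alpha chain of the receptor for granulocyte-macrophage colony-stimulating factor, had a mean of 447 and 156 per kb, close to Csf1r. The order of Csf1r and Csf2ra per kb was not examined with the other lengths. Csf2rb, the signalling chain which that receptor shares with those of other cytokines, had 158 normalised counts and 21.7 per kb. Csf3r, the receptor of the granulocyte factor, was the lowest with 15.7 normalised counts and 4.35 per kb. Csf1, Csf1r and Csf2ra lay above the median of all listed genes per kb of exonic length, and the other 3 below it. With the coding length Csf1r lay below the median, above 44.8% of the genes. Csf2 and Csf3 had no row in the table, and a gene without a row has no value here.

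Among the partners and relatives of VCAM1, 8 of 12 genes were listed, with a median of 172 normalised counts per kb, or 38.9 without Vcam1 itself. Vcam1 was the highest of them. Itga9, whose product pairs with integrin beta 1 in a receptor for VCAM1, came next with a mean of 12787 normalised counts and 1663 per kb. Itga4, the alpha chain of the main leukocyte receptor for VCAM1, had 414 normalised counts and 29.6 per kb, 1 of 5 listed genes of this group that lay below Csf1 on that scale. Its other possible chain, Itgb7, had 19.2 normalised counts and 6.94 per kb. The levels of the integrin genes thus ranged widely, with Itga9 above 94.3% of the listed genes per kb and Itgb7 above 9.79% of them. Ezr, which links adhesion molecules to the actin cytoskeleton, had 4456 normalised counts and 1354 per kb.

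Of the related adhesion molecules, Icam1, a ligand of the beta 2 integrins, had a mean of 1329 normalised counts and 305 per kb, far below Vcam1. Icam2 had 19.5 and 10.2 per kb. Itgb2, the beta 2 chain of leukocytes, had 119 normalised counts and 38.9 per kb. It lay below Emr1 per kb, as did Itga4, Itgb7 and Icam2. Itgb1, Itgad, Madcam1 and Msn had no row.

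The authors used Csf1r and Emr1, with Cxcl2, as immune cell markers in a check of purity and described their expression as low. Both genes are themselves counted among the markers of macrophages. Of 30 such genes, 27 were listed, with a median of 121 normalised counts per kb against 147 for all listed genes, and 12 lay above the latter. Per kb, 10 of the 27 were above Csf1r and 18 above Emr1, so Emr1 stood in the lower part of its own list, with 8 genes below it. Lyz2, the lysozyme of myeloid cells, was the highest with 805 per kb. Marco, a scavenger receptor, was the lowest with 1.92 per kb and a mean of 3.70 normalised counts. The complement genes C1qa, C1qb and C1qc, made largely by macrophages, had 651, 442 and 270 per kb. Ptprc, which codes for the leukocyte antigen CD45, had 7.57 per kb, from a mean of 139 normalised counts over 18313 exonic bases. The complement genes had undivided means of 677, 481 and 522 and much shorter exonic lengths of 1040, 1088 and 1931 bases. The gap per kb therefore depends strongly on length. These 3 complement genes and Ptprc were named after their values were seen. In bulk RNA, a small number of macrophages and a low level per cell cannot be told apart, and the part of macrophage RNA in the levels of Csf1r and Emr1 was not tested.

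The listed markers of Leydig cells lay far above all 4 genes. Of 7 markers, 6 were listed, with a median of 68557 normalised counts per kb and a range from 21275 for Star, the cholesterol carrier of steroid synthesis, to 414861 for Insl3, a peptide hormone of Leydig cells. Jak3 lies on the same strand and shares 404 of the 623 exonic bases of Insl3, so the level of Insl3 is uncertain. The Leydig list median was 13.1-fold above Vcam1, 168-fold above Csf1, 403-fold above Csf1r and 1251-fold above Emr1. Ratios to list medians were taken with the exonic length alone. In the mean over both stages, Vcam1 thus lay between the 2 sets of markers. It was 43.3-fold above the median of the macrophage list and above all 27 of its listed genes. The 6 Leydig markers were among the highest listed genes, with ranks of the mean from 3 to 17. They do not stand for all genes of Leydig cells, and the authors count Vcam1 itself among their markers specific to ALCs. The place of Vcam1 between the sets of markers therefore need not hold in FLCs. The authors also name Csf1 among the genes overexpressed in ALCs, so its ratios to other genes may likewise differ between the stages.

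**Figure D3:**
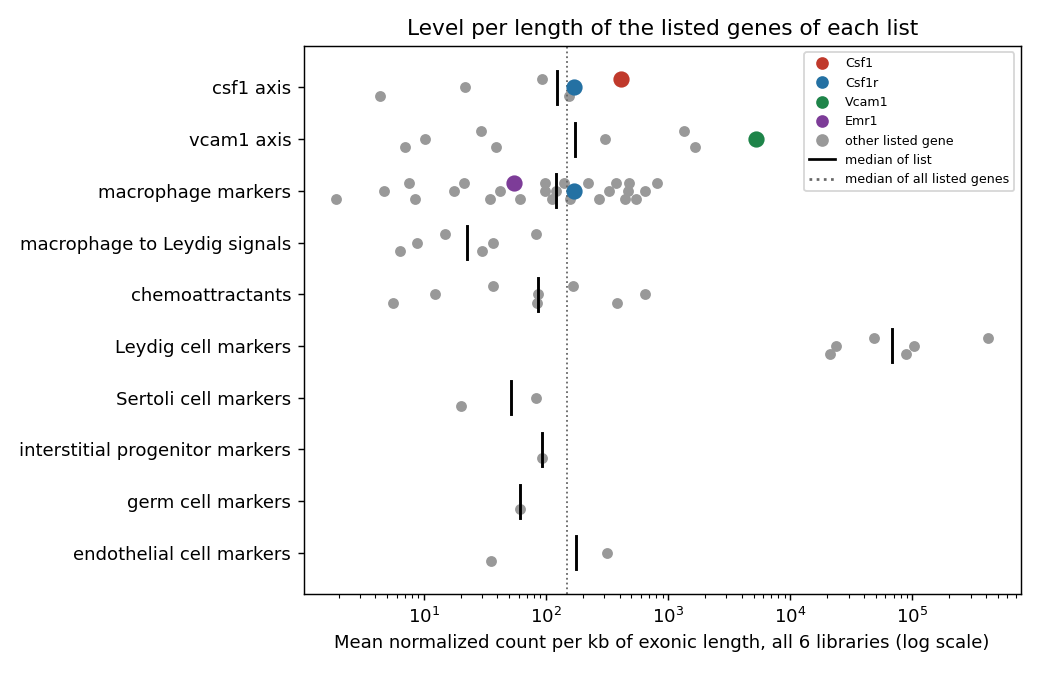
Mean normalised count over all 6 libraries per kb of exonic length (horizontal axis, log scale) for the listed genes of each list (rows); coloured points are the 4 genes, black bars list medians and the dotted line the median of all listed genes. Vcam1 at 5253 lies to the right of all listed macrophage markers and to the left of all listed Leydig cell markers, while Csf1r and Emr1 fall among the macrophage markers.

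The other cell types that such a sort could hold were covered by few listed markers. Among Sertoli cell markers, 2 of 3 were listed, with Amh at 82.2 and Dhh at 20.2 per kb. Of the 4399 exonic bases of Dhh, 546 are shared with Rhebl1 on the same strand. Another 1107 are shared with Gm49442 on the opposite strand, so the level of Dhh is uncertain. The interstitial progenitor marker Tcf21 had 92.0 per kb, and Nr2f2 had no row. Of the 3 germ cell markers, Ddx4 was the listed one, with 61.1 per kb. Of 5 endothelial markers, Cdh5 had 316 and Esam 35.7 per kb, and the other 3 were not listed. None of the 3 markers of peritubular myoid cells, Acta2, Myh11 and Cnn1, had a row. Endothelium is a known site of VCAM1. Both listed endothelial markers lay below Vcam1 and below Csf1 per kb, but levels of different genes do not give the share of a cell type. The part of these cells in the level of any of the 4 genes was not tested.

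Of 8 genes for factors by which macrophages are known to act on Leydig cells, 6 were listed, and all 6 lay below Csf1, Csf1r and the median of all listed genes per kb. The highest was Tnf, the tumour necrosis factor, with 83.5 per kb, the one gene of this list above Emr1. Il10, which codes for an anti-inflammatory cytokine, was the lowest with 6.40 per kb. The list includes Ch25h, whose product makes 25-hydroxycholesterol, a macrophage sterol that Leydig cells can turn into testosterone, and which was named after its value of 8.79 per kb was seen. Of 9 chemoattractant genes, 8 were listed, with a median of 85.3 per kb. Cxcl12 was the highest with 5322 normalised counts and 651 per kb, and was the one gene of that list above Csf1. Cxcl2, a neutrophil attractant, was the lowest with 5.61 per kb.

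How far the 4 genes lay apart depended on the length used, although their order did not. With the coding length alone, Vcam1 had 19367 normalised counts per kb, Csf1 1145, Csf1r 335 and Emr1 63.5. With the longest transcript Vcam1 was 208-fold above Emr1. Emr1 lay above 22.5% of the genes by coding length and so below the lower quartile. Csf1 exceeded Csf1r by 2.47-fold with the longest transcript and by 3.42-fold with the coding length. Which transcripts of the 4 genes were present is not known from the table, so these ratios are uncertain. The ratio of Vcam1 to Emr1 changed most with the length, from 95.9-fold to 305-fold. That of Csf1 to Emr1 ranged from 7.45-fold to 18.0-fold.

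**Figure D4:**
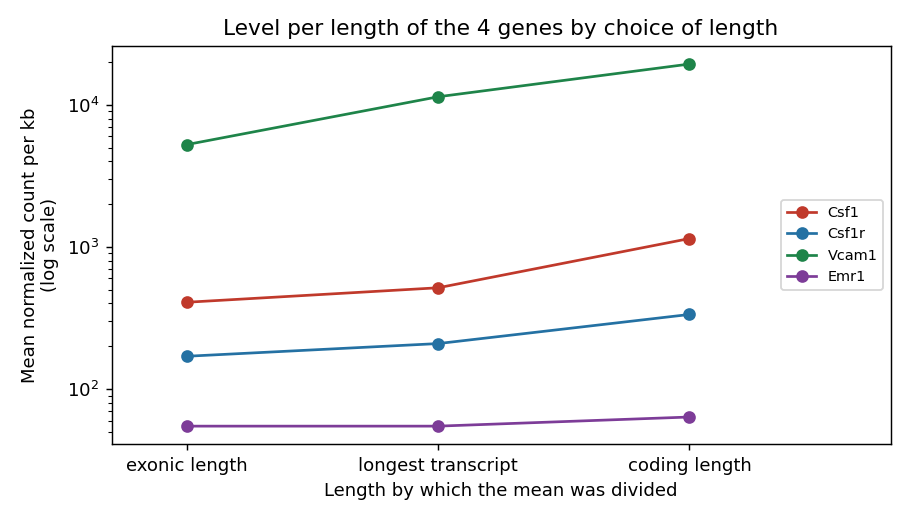
Mean normalised count over all 6 libraries per kb (vertical axis, log scale) of the 4 genes, divided by the exonic length, the longest transcript or the coding length (horizontal axis). The lines join values of the same gene and do not cross; Vcam1 moves from 5253 to 19367 while Emr1 moves from 54.8 to 63.5.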

How the data were processed

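RNA of sorted FLCs and ALCs, in 3 libraries per stage, was sequenced by the authors on an Illumina instrument. Demultiplexing with CASAVA (version 1.8.2 per the labels), mapping with GemTools and counting per GENCODE gene of GRCm38 were done by the authors, who dropped genes with few reads before running DESeq2. The deposited signal used here is the authors' average of size-factor normalised counts, taken across the 6 libraries of both stages. The other deposited columns hold the authors' own comparison of ALCs with FLCs (log2 fold change, standard error, statistic and p-values) and were not used. How the 10580 listed genes were chosen from all counted genes was therefore not examined, and a gene without a row was not read as absent. They are fewer than the protein-coding and long non-coding genes that the authors describe as expressed. Every rank and percentile here refers to the listed genes alone. A deposited sheet of library names and stages holds no measured value and was not used.

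Gene models of GENCODE vM21, which is of the same build, were found for 10223 genes under their listed symbol and for 300 under an older symbol given by RefSeq, and 57 had none. The authors name another GENCODE version for their counts. Each level per kb thus divides those counts by exon lengths that can differ from theirs. Each mean was divided by the merged exonic length, with the longest transcript and the coding length (10457 genes) as alternatives. Icam1, Ch25h and Itga4 share 11.7%, 11.5% and 8.04% of their exonic bases with genes on the opposite strand, and the effect on their levels was not tested. A percentile is the share of listed genes with a lower value. The 4 genes and the 11 gene lists (90 entries, 67 of them listed, with 1 further marker not reported here) were chosen with earlier results of these data known. Genes named are the 4 genes, all listed genes of the CSF1 and VCAM1 lists, and the highest and lowest listed gene per kb of the other lists; exceptions are marked. The computation used Python 3.11.15, pandas 2.3.3 and SciPy 1.17.1. Of its steps, only the merging of exons and the count of lower values were tested on simulated data.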

Additional observations from a re-analysis of the deposited data

How the results depend on the processing

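The order Vcam1, Csf1, Csf1r, Emr1 was the same without division and with each of the 3 lengths. The filters on the mean and the list medians could not change it. Of the alternative values, 20 of 23 moved by more than the 95% exact binomial interval of the percentile, or at all for list medians. That interval covers the count of genes and not the error of measurement. Among listed genes with a mean of at least 10, the percentile of Csf1 was 76.4, of Csf1r 56.1 and of Emr1 25.9, and among those with a mean of at least 100 it was 70.8, 45.7 and 8.16. Per exonic length, the percentiles were 74.0 for Csf1, 53.2 for Csf1r, 98.7 for Vcam1 and 32.1 for Emr1. With the longest transcript they were 72.7, 50.5, 99.3 and 28.8, and with the coding length 72.1, 44.8, 99.0 and 22.5. Csf1r thus crossed the median, and Emr1 the lower quartile, under the filter at 100 and under the coding length, and Csf1 the upper quartile under that filter and with each of the 3 lengths. Without the 4 genes, the median level per kb was 56.9 for the CSF1 list and 38.9 for the VCAM1 list, against 124 and 172 with them. No paired analysis was possible because the table holds no values per library, and no library could be left out. The depth of the libraries and the counting error of each level are unknown.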
